A study of Setaria viridis with 24 samples.

Results

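In young plants of the grass Setaria viridis, 22 of 20865 genes were higher in the stem than in the crown in both water regimes and at both ages and also stayed within set limits of change with drought and age. Those limits left 22 of the 250 genes that met the stem/crown part of the rule. They were chosen from the authors' group values in FPKM (fragments counted on a gene, scaled to transcript length and to library size), with 1 FPKM added to every value before a ratio was taken. A member had a stem/crown ratio of at least 2.5 in all 4 pairs of groups, a drought/watered ratio between 0.7 and 1.4 in all 4 pairs, a day 9/day 6 ratio between 0.6 and 1.7 in watered stems and watered crowns, and at least 5 FPKM in its highest group. Because the rule used all 8 group values, the levels and ratios below are a description of the genes it picked.

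The study asked how drought acts on the region of the grass shoot that forms roots. RNA was sequenced from the upper region (stem) and the lower region (crown) of plants under drought or watered, harvested at 9 or 6 days after sowing. The groups were therefore drought day 9, watered day 9, drought day 6 and watered day 6 stems, and the same 4 kinds of crown. Each group had 3 libraries, 1 from each of 3 biological repeats, and each library came from 20 plants, so a value is an average over pooled plants. Ribosomal RNA was removed from total RNA before strand-specific libraries were made, and the labels name no genotype or strain.

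As background, the crown of a grass is the stack of short nodes at the shoot base, and shoot-borne roots start there. The stem region above it carries the leaves. Grasses are known to hold back shoot-borne roots while the upper soil is dry and to release them after watering. Genes that differ between the regions in every water regime show a difference present with and without drought. Their levels may still change with drought. In bulk tissue, fewer cells of a type and less RNA per cell cannot be told apart, and this holds for every difference given here.

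The files carry gene identifiers and positions, and their description fields hold an entry for no annotation throughout. The RefSeq table for the species, with 34587 genes, had 0 matches to these identifiers. Members are therefore named by identifier, no role is given for any of them, and the 21 lists of gene descriptions prepared for them (photosynthesis, cuticle, stomata, meristem, hormones, root and others) found 0 of them. The regions were accordingly not checked against marker genes. The sources used here do not give the genome build, and positions are those of the authors' files, whose gene models are marked v1.1.

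The values of single libraries were not analysed here, and read depth is unknown. An error could still be had for every group value. The deposited log2 fold changes and test statistics of the 28 tables fitted 1 variance per gene and group, within 0.00329% for all of the 16202 genes that could be solved from every table. Sevir.7G181100 and Sevir.9G230800 were listed in 27 and 22 tables. They were solved from those tables, and no misfit was taken for them. For drought over watered, the deposited p-values of members matched a normal test on that spread divided by the square root of 3 libraries, at a median of 0.995 and at most 1.04 times the normal value. For day 9 over day 6 they were at a median of 1.02 times the normal value. In 2 of 86 cases they were above 2 times it, at most 7.60 times in Sevir.7G220700 in drought stems. For stem over crown, 66 of the 88 comparisons were at the smallest deposited p and were not compared. In the other 22 cases, the deposited p was the larger one in 20. Over these 22 it was at a median of 4.37 times the normal value, and at most 470 times in Sevir.9G230800. In those 20 cases, errors on stem over crown fold changes are too small where the authors' p is taken as the measure. Calls are therefore read from the authors' p. Each log2 fold change below is followed by the standard error (SE) obtained in this way, which rests on the authors' model of the spread and not on library values.

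The members covered a wide range of levels, and in each of the 22 the lowest of the 4 stem values lay above the highest of the 4 crown values. Over all genes 11.6% had this separation, which the rule favours. Mean stem level ran from 4.86 to 3577 FPKM with a median of 36.6 FPKM, and mean crown level from 0.679 to 1197 FPKM with a median of 12.2 FPKM. In 4 members mean stem level was above 200 FPKM, in 13 it lay between 20 and 120 FPKM, and in 5 it was under 20 FPKM. The median level in the watered day 6 stem was 48.8 FPKM for members and 10.1 FPKM for all genes.

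The most abundant member was Sevir.2G310200 (chromosome 2, 38142447 to 38143509), which ranked 8 among all genes in the watered day 6 stem. Drought stems held 2622 FPKM at day 9 and 4024 FPKM at day 6, and watered stems held 2897 and 4766 FPKM. Drought crowns held 889 FPKM at day 9 and 1303 FPKM at day 6, and watered crowns held 986 and 1610 FPKM. All 4 stem values thus exceeded all 4 crown values, by 2.94 to 3.09 times within a pair on FPKM + 1. Its log2 fold change of stem over crown was 1.56 ± 0.43 (SE) under drought at day 9 and 1.57 ± 0.48 in watered plants at day 6, with adjusted p-values of 0.00525 and 0.0229 in the authors' deposited tables.

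Next came Sevir.4G124500 (chromosome 4, 14190932 to 14191546), which ranked 24. In the stem it had 1205 FPKM under drought and 1407 FPKM watered at day 9, and 1978 FPKM under drought and 2138 FPKM watered at day 6. In the crown it had 442 FPKM under drought and 547 FPKM watered at day 9, and 761 FPKM under drought and 701 FPKM watered at day 6. Among the day 6 crowns the drought value was the higher one, unlike in the other 3 pairs of water regimes for this gene.

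Sevir.6G180200 (chromosome 6, 29180463 to 29182052) and Sevir.3G199700 (chromosome 3, 14673994 to 14679801) were the other members with a mean above 200 FPKM in stems. Sevir.6G180200 had 195 FPKM under drought and 200 FPKM watered in day 9 stems, and 299 FPKM under drought and 321 FPKM watered in day 6 stems. Its crowns had 68.9 FPKM under drought and 71.9 FPKM watered at day 9, and 118 FPKM under drought and 111 FPKM watered at day 6. The drought/watered ratios of this gene on FPKM + 1 lay between 0.932 and 1.06, close to 1 at both ages. Sevir.3G199700 had 139 FPKM at day 9 and 251 FPKM at day 6 in drought stems, and 191 and 301 FPKM in watered stems. Drought crowns had 43.1 FPKM at day 9 and 71.9 FPKM at day 6, and watered crowns had 58.1 and 93.8 FPKM. It was one of 13 members whose drought value was the lower one in all 4 pairs.

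**Figure D1:**
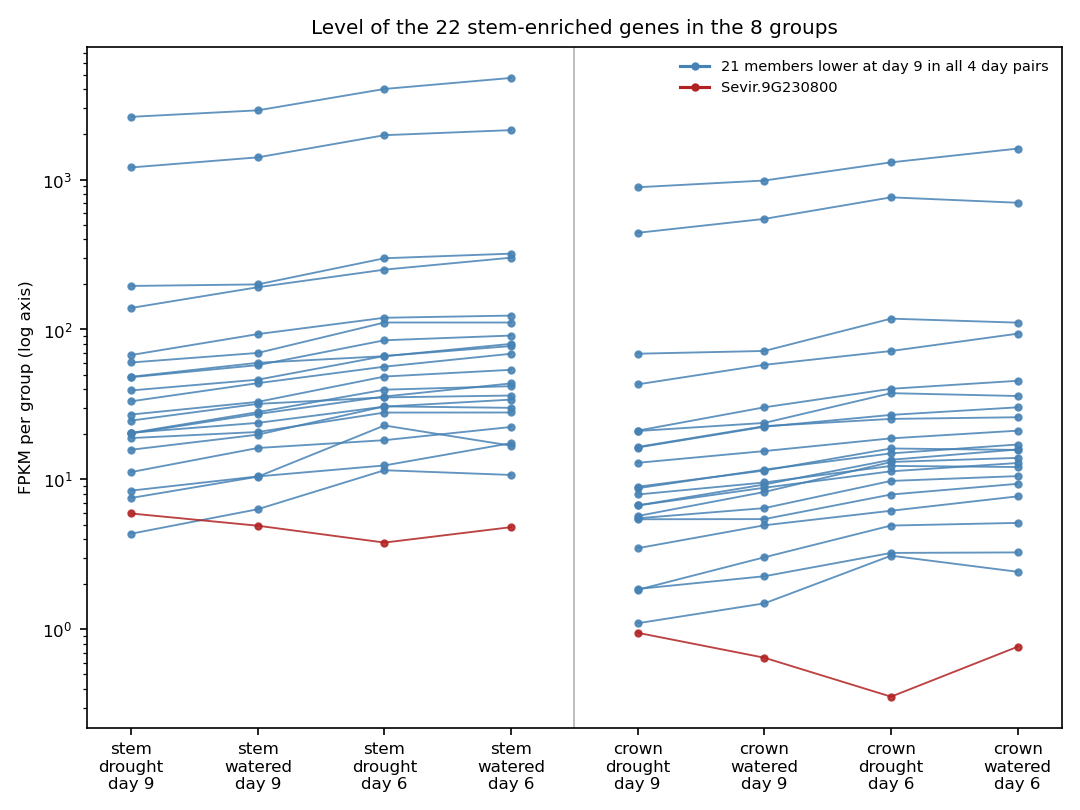
FPKM (log axis) of each of the 22 members in the 8 groups, stems on the left and crowns on the right, 1 line per gene and region and 1 point per group, with no error bars. In 21 members, drawn in blue, each day 9 value lies below the day 6 value of the same region and water regime, and Sevir.9G230800, drawn in red, does not follow this order.

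Scaled to its own mean over the 8 groups, the profile of 21 members had a common shape. The median member stood at 102% of its mean in drought day 9 stems, 128% in watered day 9 stems, 177% in drought day 6 stems and 191% in watered day 6 stems. In crowns the medians were 34.2% in drought day 9, 41.5% in watered day 9, 58.7% in drought day 6 and 61.1% in watered day 6 plants. In each of these 21 members, both day 6 stems lay above both day 9 stems, which lay above both day 6 crowns, which lay above both day 9 crowns. Among all genes 5.61% had this order. The rule favours its part with stems above crowns, but does not ask for day 6 above day 9. The decline within this order was common to stem-enriched genes. Of the 250 genes that met the stem/crown part of the rule, 93.6% were lower at day 9 in all 4 day pairs. The highest group was the watered day 6 stem in 17 members, the drought day 6 stem in 4 and the drought day 9 stem in 1, and the lowest was the drought day 9 crown in 21.

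The exception was Sevir.9G230800 (chromosome 9, 17344218 to 17345550), the least abundant member. It had 5.92 FPKM under drought and 4.91 FPKM watered in day 9 stems, and 3.79 FPKM under drought and 4.80 FPKM watered in day 6 stems. In crowns it had 0.948 FPKM under drought and 0.646 FPKM watered at day 9, and 0.355 FPKM under drought and 0.765 FPKM watered at day 6. The stem values ran from 3.79 to 5.92 FPKM with no decline at day 9, and every crown value was under 1 FPKM. Only its drought day 9 stem reached the 5 FPKM that the rule asks of the highest group. Its membership thus depends on that value, and nothing is read from that group being its highest. At such crown levels the added 1 FPKM lowers the ratio, so that its stem/crown ratios on FPKM + 1 lay between 3.29 and 3.59 while its log2 fold changes ran from 2.64 to 3.42, the highest of any member in each pair. It was listed in 22 of the 28 tables.

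Stem over crown, the members passed the authors' test in nearly every case. In the authors' deposited tables, 21 of 22 were called higher in the stem under drought at day 9, 21 watered at day 9, 20 under drought at day 6 and 21 watered at day 6, at an adjusted p under 0.05. Of all genes listed, 6.64%, 6.88%, 10.7% and 12.3% were called higher in the stem in the same 4 comparisons. As the rule chose the members by this contrast, nothing is read from the difference. In all, 83 of the 88 comparisons of members were called and 20 members were called in all 4. Median log2 fold changes were 1.63, 1.62, 1.61 and 1.62 in the same order, beside -0.05, -0.05, -0.01 and -0.02 for all genes listed.

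**Figure D2:**
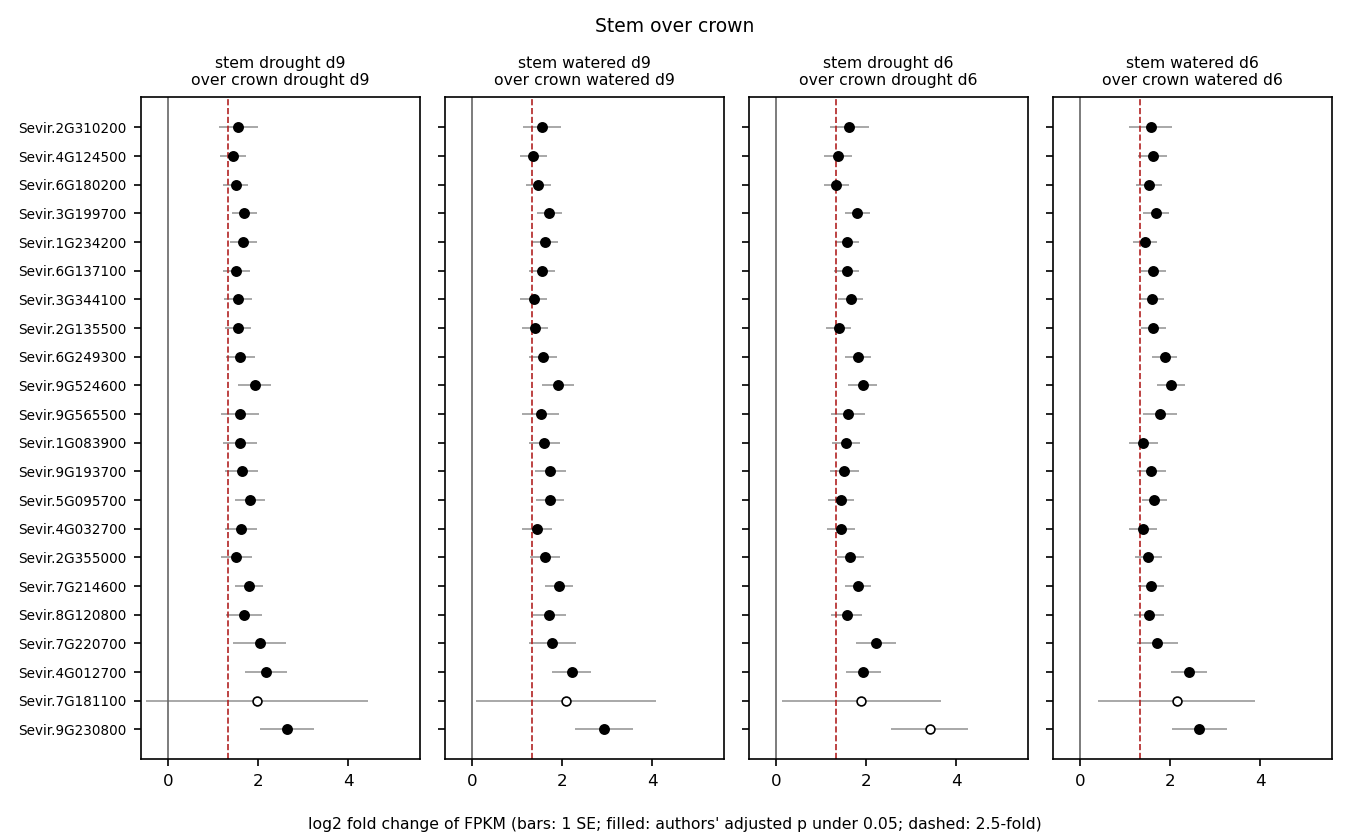
Log2 fold change of stem over crown for each member (rows, by mean stem FPKM) in the 4 pairs of groups (columns), with bars of 1 SE. Filled points have an authors' adjusted p under 0.05, the dashed line marks 2.5-fold, and the only open points are the 4 of Sevir.7G181100 and that of Sevir.9G230800 under drought at day 6.

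Whether members differed in the stem/crown ratio cannot be read from these values. Over all 22, the SD of the log2 fold change over members was 0.28 to 0.43 in the 4 pairs. The median SE was 0.31 to 0.35. The rule set a lower limit on the ratio in all 4 pairs, which narrows the SD over members. The SE was also too small by the authors' p in 20 of the 22 stem over crown comparisons above the smallest deposited p. Nothing is therefore read from the SD set beside the SE. Only for Sevir.7G181100 did the 95% interval, taken from the SE by the normal distribution, include 0, in all 4 pairs.

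Among members with more than 1 FPKM in every crown, Sevir.4G012700 (chromosome 4, 893659 to 895834) had the highest log2 fold change of stem over crown in 3 of the 4 pairs. It had 8.42 FPKM under drought and 10.5 FPKM watered in day 9 stems, and 12.4 FPKM under drought and 17.5 FPKM watered in day 6 stems. Its crowns had 1.86 FPKM under drought and 2.26 FPKM watered at day 9, and 3.23 FPKM under drought and 3.26 FPKM watered at day 6. The log2 fold change was 2.18 ± 0.46 under drought and 2.21 ± 0.43 watered at day 9, and 1.94 ± 0.39 under drought and 2.42 ± 0.40 watered at day 6. All 4 had an adjusted p of 0.00091 in the authors' deposited tables, the smallest value these tables hold.

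Sevir.9G524600 (chromosome 9, 52194428 to 52196050) was the only member with all 4 stem/crown ratios on FPKM + 1 above 3.5. Its stems had 33.2 FPKM under drought and 43.9 FPKM watered at day 9, and 56.5 FPKM under drought and 68.9 FPKM watered at day 6. Its crowns had 8.73 FPKM under drought and 11.6 FPKM watered at day 9, and 14.9 FPKM under drought and 17.1 FPKM watered at day 6. The ratio stayed between 3.51 and 3.86 while the level itself changed more than 1.5-fold between groups of the same region.

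Across pairs, no member had a change in its ratio that was larger than the error. The lowest and the highest of a member's 4 log2 fold changes lay a median of 0.23 apart. Drought minus watered, the log2 ratio of stem over crown differed by -0.28 to 0.25 among plants of day 9 and by -0.48 to 0.77 among those of day 6. Day 9 minus day 6, it differed by -0.77 to 0.38 under drought and by -0.29 to 0.35 in watered plants. The 95% interval of these differences included 0 in all 22 members in each of the 4 cases, with a median SE of 0.44 to 0.48. The rule bounded the drought/watered ratios and the watered day ratios in both regions, which limits these differences in advance. Nothing is therefore read from the intervals that included 0, and intervals of that width do not show that the ratios were equal.

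Sevir.7G181100 (chromosome 7, 24239870 to 24246135) passed the rule without passing any of these tests. Drought stems had 4.34 FPKM at day 9 and 11.5 FPKM at day 6, and watered stems had 6.32 and 10.7 FPKM. Drought crowns had 1.098 FPKM at day 9 and 3.10 FPKM at day 6, and watered crowns had 1.49 and 2.42 FPKM. Every stem value exceeded every crown value, yet its stem over crown log2 fold changes carried SEs of 1.75 to 2.47, and its adjusted p-values in the authors' deposited tables were 0.531 to 0.646. The spread per library behind its watered day 6 stem value was 1.36 on the log2 scale. Of 1925 genes within 1.2-fold of its level, whose median spread was 0.40, 12 had a spread at least as large. The files give its position entry for 1 other gene too, and whether this bears on its spread was not tested.

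**Figure D3:**
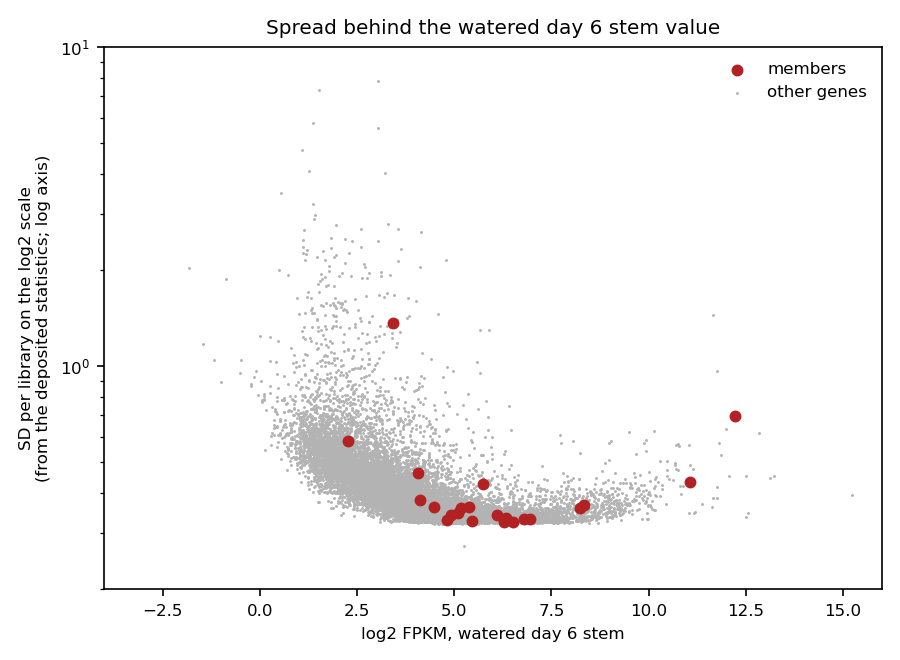
Spread per library on the log2 scale (SD, log axis, from the deposited statistics) against log2 FPKM in the watered day 6 stem, with members in red and other genes in grey. Most members lie within the grey cloud near its lower edge, while Sevir.7G181100 at 1.36 and the abundant Sevir.2G310200 at 0.70 stand above most genes of their level.

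The SD per library on the log2 scale had a median over members of 0.35 to 0.38 in the stem groups and 0.40 to 0.46 in the crown groups, beside 0.38 to 0.39 over all genes. It was under 0.7 in all 8 groups in 19 members. Beside Sevir.7G181100, the exceptions were Sevir.9G230800, with 0.87 to 1.37 in crowns, and Sevir.7G220700, with 0.63 to 0.83 in crowns. In the 4 most abundant members every stem SD was above every crown SD, by the most in Sevir.2G310200 (0.58 to 0.70 in stems and 0.43 to 0.46 in crowns).

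Drought over watered, no member passed the authors' test. In the authors' deposited tables, 0 of 22 members were called in day 9 stems, 0 of 22 in day 6 stems, 0 of the 20 listed in day 9 crowns and 0 of the 21 listed in day 6 crowns. The counts at an unadjusted p under 0.05 from the same Cuffdiff tables were also 0 in all 4, where 9.05%, 5.27%, 13.9% and 6.23% of all genes listed had one. Of all genes listed, 3.63%, 1.44%, 6.37% and 2.08% were called at the adjusted p in the same order. The rule bounded these ratios, and nothing is read from the lack of calls.

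Within those bounds the values leaned to one side at day 9. Under drought, 21 of 22 members stood lower at day 9 in both the stem and the crown, with Sevir.9G230800 higher in both. Among all genes 35.8% were lower in both, and among the 250 genes that met the stem/crown part of the rule 92.4% were. Median log2 fold changes of drought over watered were -0.31 in stems and -0.38 in crowns at day 9, and -0.13 in stems and -0.14 in crowns at day 6, beside medians between -0.03 and 0.00 for all genes listed. The 95% interval included 0 in all 22 members in each of the 4 comparisons. It also reached below a 2-fold decrease in 11 members in day 9 stems, 4 in day 6 stems, 13 in day 9 crowns and 5 in day 6 crowns, so that a 2-fold decrease lay within the error for those genes.

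**Figure D4:**
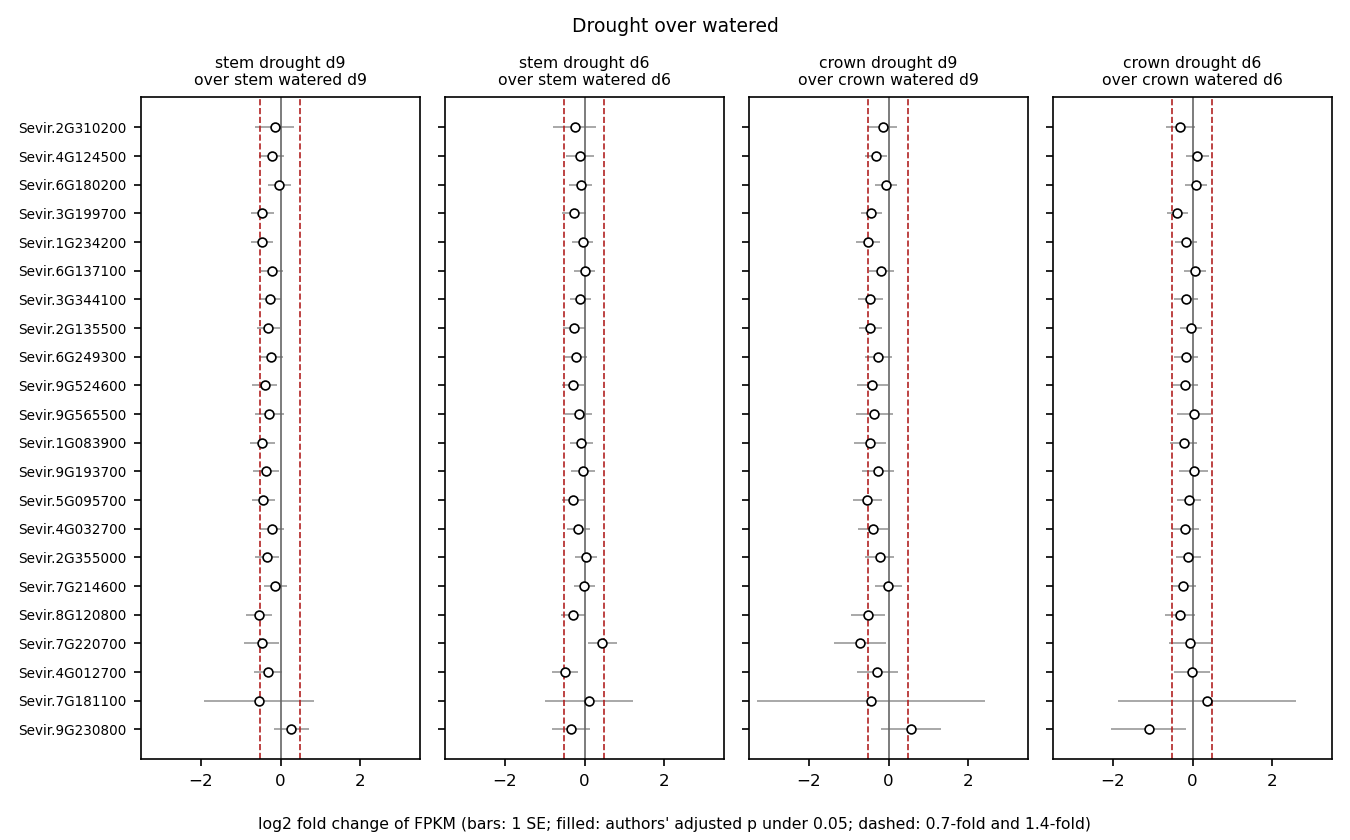
Log2 fold change of drought over watered for each member (rows, by mean stem FPKM) in stems and crowns at day 9 and day 6 (columns), with bars of 1 SE. All points are open because none had an authors' adjusted p under 0.05, the dashed lines mark the limits of 0.7-fold and 1.4-fold on FPKM + 1, and most points of the day 9 panels lie left of 0.

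Sevir.6G180200 and Sevir.8G120800 (chromosome 8, 19877276 to 19888626) show the range of drought values at day 9, though their errors overlapped. Sevir.6G180200 had log2 fold changes of drought over watered of -0.03 ± 0.29 in stems and -0.06 ± 0.28 in crowns, from the levels given above. Sevir.8G120800 had 11.2 FPKM under drought and 16.2 FPKM watered in day 9 stems, and 3.48 FPKM under drought and 4.94 FPKM watered in day 9 crowns. Its log2 fold changes were -0.53 ± 0.33 in stems and -0.51 ± 0.43 in crowns. At day 6 its drought and watered values were 18.3 and 22.4 FPKM in stems and 6.18 and 7.71 FPKM in crowns. All 4 drought values lay below their watered counterparts.

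Day 9 over day 6, the members were not flat, and the description of them as stable holds only within the limits of the rule. In 21 of 22 members all 4 day 9 values lay below their day 6 counterparts, a pattern found in 15.2% of all genes and in 93.6% of the 250 that met the stem/crown part of the rule. Median log2 fold changes were -0.77 in drought stems, -0.65 in watered stems, -0.78 in drought crowns and -0.59 in watered crowns. The medians of all genes listed were between -0.05 and 0.05. In watered plants, where the rule set a lower limit of 0.6 on FPKM + 1, 15 members lay within 0.05 of that limit in at least 1 region.

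Under drought, where the rule named no limit on the day ratio, the decline passed the authors' test in some members. In the authors' deposited tables, 9 of 22 members were called lower at day 9 in drought stems, against 7.3% of all genes listed, and 6 of the 21 listed were called lower in drought crowns, against 2.59%. With the authors' p-values adjusted within each table alone, the counts were 8 in drought stems and 2 in drought crowns. The 4 members called in both drought regions were Sevir.1G234200, Sevir.3G199700, Sevir.5G095700 and Sevir.6G137100. In watered plants the authors' Cuffdiff tables called 0 members in stems and 0 in crowns, while 9 in stems and 9 in crowns were lower with an unadjusted p under 0.05. Of all genes listed, 6.76% were called lower at day 9 in watered stems and 2.0% in watered crowns, and 13.8% and 6.21% were lower at the unadjusted threshold. As the day ratio under drought is a product of ratios that the rule bounds, these counts are not independent of it.

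**Figure D5:**
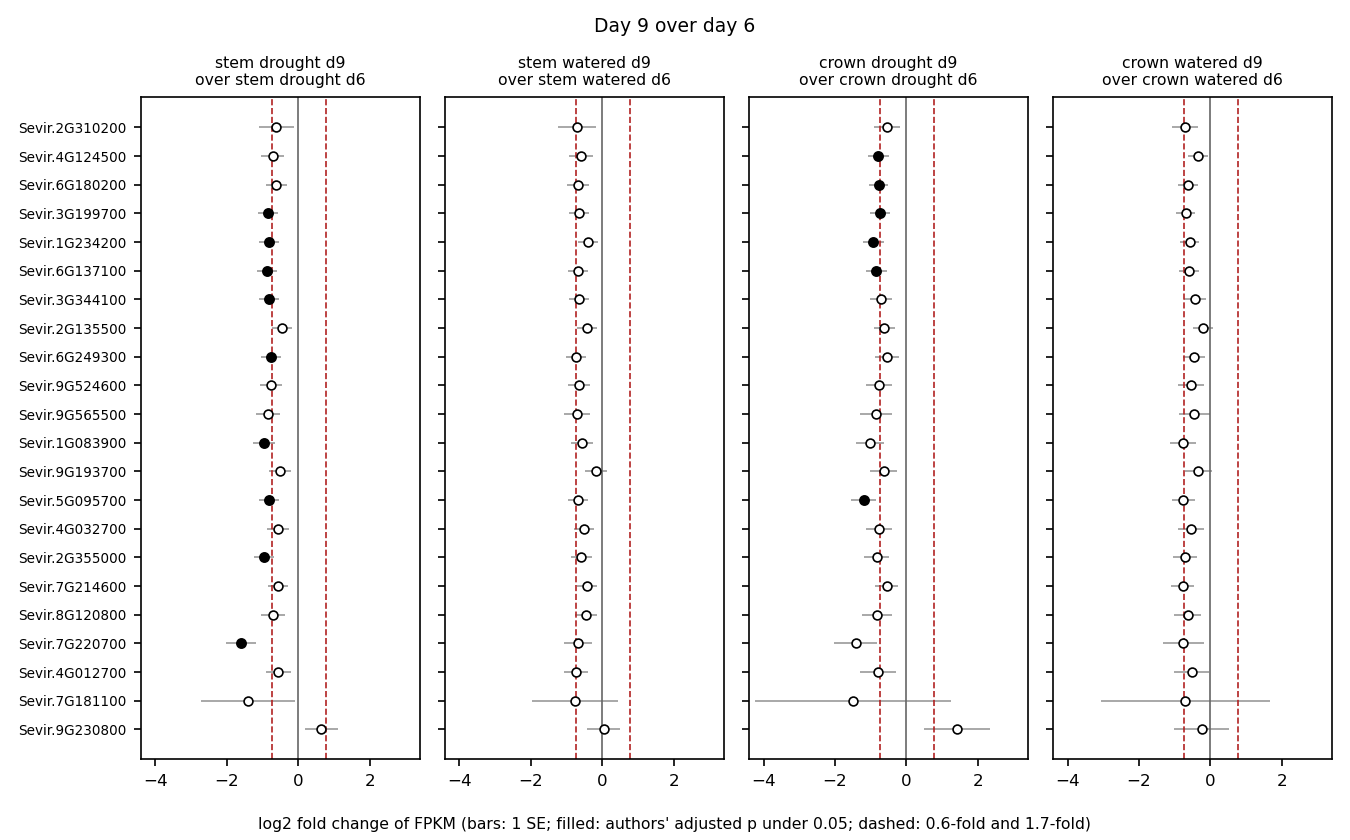
Log2 fold change of day 9 over day 6 for each member (rows, by mean stem FPKM) in drought and watered stems and crowns (columns), with bars of 1 SE. Filled points have an authors' adjusted p under 0.05 (9 in drought stems, 6 in drought crowns), dashed lines mark 0.6-fold and 1.7-fold, and Sevir.9G230800 is the only point right of 0 in 3 of the panels.

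The largest decline was that of Sevir.7G220700 (chromosome 7, 27029353 to 27030238) in drought stems. It had 7.52 FPKM at day 9 and 22.9 FPKM at day 6 in drought stems, a log2 fold change of -1.61 ± 0.41 with an adjusted p of 0.00823 in the authors' deposited table. In watered stems it had 10.4 FPKM at day 9 and 16.8 FPKM at day 6, and the log2 fold change was -0.69 ± 0.40. In drought crowns it had 1.84 FPKM at day 9 and 4.92 FPKM at day 6, and in watered crowns 3.02 and 5.13 FPKM. Its drought day 6 stem was the highest of the 8 groups, as it was in 4 members in all. For the decline in drought stems, the unadjusted deposited p was 7.60 times the normal value from its SE. That SE of 0.41 is therefore too small where the authors' p is taken as the measure.

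Sevir.5G095700 (chromosome 5, 7699635 to 7703895) declined in both drought regions. In drought stems it had 20.3 FPKM at day 9 and 35.7 FPKM at day 6, a log2 fold change of -0.82 ± 0.28. In drought crowns it had 5.70 FPKM at day 9 and 13.1 FPKM at day 6, a log2 fold change of -1.20 ± 0.34. The adjusted p-values in the authors' deposited tables were 0.0245 and 0.0109. In watered plants it had 27.3 FPKM at day 9 and 43.7 FPKM at day 6 in stems, and 8.24 and 13.9 FPKM in crowns.

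Sevir.1G234200 (chromosome 1, 30112571 to 30115764) and Sevir.6G137100 (chromosome 6, 23392965 to 23396533) had like levels in drought plants. Sevir.1G234200 had 67.6 FPKM at day 9 and 120 FPKM at day 6 in drought stems, and 21.2 and 40.2 FPKM in drought crowns at the same ages. Sevir.6G137100 had 60.2 FPKM at day 9 and 111 FPKM at day 6 in drought stems, and 21.03 and 37.6 FPKM in drought crowns. The watered stems of Sevir.1G234200 had 93.2 FPKM at day 9 and 124 FPKM at day 6, a log2 fold change of -0.41, and those of Sevir.6G137100 had 69.8 and 111 FPKM, a log2 fold change of -0.67.

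Small day differences in watered plants were those of Sevir.9G193700 (chromosome 9, 13625616 to 13629812) in both regions and of Sevir.2G135500 (chromosome 2, 14467583 to 14473567) in crowns. Sevir.9G193700 had 31.9 FPKM at day 9 and 36.3 FPKM at day 6 in watered stems, and 9.54 and 12.1 FPKM in watered crowns. Its log2 fold changes of day 9 over day 6 were -0.18 ± 0.30 in stems and -0.34 ± 0.37 in crowns. In drought plants it had 24.7 FPKM at day 9 and 35.2 FPKM at day 6 in stems, and 7.93 and 12.3 FPKM in crowns. Sevir.2G135500 had 60.0 FPKM at day 9 and 80.2 FPKM at day 6 in watered stems, and 22.7 and 26.0 FPKM in watered crowns, for log2 fold changes of -0.42 ± 0.28 in stems and -0.20 ± 0.28 in crowns. The day 9 values of Sevir.9G193700 were thus lower in all 4 pairs and those of Sevir.2G135500 in both watered pairs, and none of these differences passed the authors' test.

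Set against watered plants, the day change under drought was more negative in 18 of 22 members in stems and in 19 of 22 in crowns. The median difference between the 2 log2 day changes was -0.14 in stems and -0.24 in crowns, with median SEs of 0.42 and 0.50. The 95% interval included 0 in all 22 members in both regions, so a difference in day change between water regimes was not resolved for any single member. This difference is also that between the drought/watered ratios of the 2 ages, which the rule bounded. The same share was not taken over all genes, and nothing is read from these counts or intervals.

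The limits of the rule cut through a continuous set of genes. Just inside the stem/crown limit of 2.5, the smallest of the 4 ratios on FPKM + 1 was 2.51 in Sevir.3G344100 (chromosome 3, 41461276 to 41464463), 2.52 in Sevir.6G180200 and 2.53 in Sevir.4G032700 (chromosome 4, 2302842 to 2305992). Just outside, it was 2.48 in Sevir.5G238600, Sevir.9G067400 and Sevir.5G330100. Of 250 genes that met the stem/crown part, 57 were kept out by the day limits alone, and all 57 fell below the lower limit of 0.6 while 0 passed the upper limit of 1.7. A further 41 were kept out by the drought limits alone, 37 of them with a day 9 ratio at or below 0.7.

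Close to the lower day limit, Sevir.6G249300 (chromosome 6, 34641840 to 34644854) was inside with a ratio of 0.602 and Sevir.9G266800 outside with 0.599. Close to the lower drought limit, Sevir.7G220700 was inside with 0.705 and Sevir.4G126500 outside with 0.699. The outside genes of these limits were picked once their values were known. The SEs of the fold changes were larger than the distance of such genes from a limit.

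In position the members were scattered. They lay on all 9 chromosomes, with 1 to 4 on each and 4 on chromosome 9. None was next to another member in the order of genes, and the nearest pair, Sevir.7G214600 (chromosome 7, 26569482 to 26573367) and Sevir.7G220700, was 39 genes and 455986 bases apart. The median span of a member was 3180 bases, beside 3591 bases for all genes, and spans ran from 614 bases in Sevir.4G124500 to 11350 bases in Sevir.8G120800.

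The remaining members, Sevir.9G565500, Sevir.1G083900, Sevir.2G355000, Sevir.7G214600, Sevir.3G344100, Sevir.6G249300 and Sevir.4G032700, followed the common profile. Their stem values lay between 15.8 and 91.1 FPKM and their crown values between 5.42 and 30.3 FPKM. Sevir.2G355000 (chromosome 2, 41455794 to 41458967) and Sevir.1G083900 (chromosome 1, 7405731 to 7408995) fell in drought stems, to 15.8 FPKM at day 9 against 30.7 FPKM at day 6 and to 20.4 FPKM at day 9 against 39.7 FPKM at day 6. Their log2 fold changes were -0.96 in both, with adjusted p-values of 0.0134 and 0.0173 in the authors' deposited table. Sevir.9G565500 (chromosome 9, 54872743 to 54875528) shares its position entry in the files with 1 other gene.

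Genes chosen by the mirrored rule, at least 2.5-fold higher in the crown, numbered 26 and are given only for comparison. On FPKM + 1, the median log2 ratio of day 9 over day 6 was -0.75 in drought stems and -0.64 in watered stems for the stem-enriched members, and 0.28 and 0.01 for the crown-enriched genes. In crowns it was -0.72 under drought and -0.54 watered for the stem-enriched members, and 0.42 and 0.26 for the crown-enriched genes. At day 9 the median log2 ratio of drought over watered was -0.29 in stems and -0.32 in crowns for the stem-enriched members, and 0.13 and 0.22 for the crown-enriched genes. Both sets were read from the same libraries, and the difference between them was not tested.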

How the data were processed

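RNA-seq of 24 libraries in 8 groups of 3 was deposited as 28 tables, 1 for each pair of groups. Cuffdiff, FastQC and cutadapt are named, with no version, in the submitters' processing notes, and an aligner is not given in the sources used here. Per the file headers, each table gives for every gene the authors' FPKM of both groups, a log2 fold change, a p-value and a q-value (adjusted p). The deposited test statistic is a score without a stated scale. A group had the same FPKM in all tables, and a Benjamini-Hochberg adjustment of all 531416 p-values together returned the deposited adjusted ones within 5.28e-07.

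The square of fold change over statistic was split into 1 variance per group by least squares. The code was checked on simulated data built from the same relation, which does not test that relation. The deposited p-values above 0.001 differed from normal ones with that spread over the square root of 3 by a median of 1.23%, and 86.5% of 482574 were within 10%, while in 20 of the 22 stem over crown comparisons of members above the smallest p the deposited value was the larger one. The SE of a fold change is the root of the summed variances over 3. No library values were used, so the planned limma test was replaced by the authors' own calls at an adjusted p under 0.05. Work was done in Python 3.11.15 with pandas 2.3.3, numpy 2.4.6, scipy 1.17.1 and statsmodels 0.14.6.

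Members, lists and tests were chosen with earlier results of these data known. Genes were named by a rule: the 10 members with the highest mean stem FPKM, the 10 with the highest smallest stem/crown ratio, the 5 highest and 5 lowest day 9/day 6 ratios in drought stems and the 3 highest and 3 lowest in drought crowns, the 3 genes on each side of the stem/crown limit, and members without a call in a stem over crown table. The remaining members were named to account for all 22. Whether the 3 libraries of a group came from separate plantings is given only as biological repeat. The p-values rest on the authors' model of the spread between libraries. Positions are printed as in the files, which do not state whether starts count from 0 or 1.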

Additional observations from a re-analysis of the deposited data

How the results depend on the processing

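The number of members depended on the limits. With limits changed one at a time, it was 109 at a stem/crown ratio of at least 2 and 4 at 3, 7 with the drought/watered limits narrowed (lower limit 0.8) and 60 with them widened to 0.5 and 2, 79 with no day limit, 8 with the day limits also applied under drought, and 34 with ratios centred on the median gene. With day limits of 0.4 and 2.5, chosen after seeing the data, it was 73. It was between 19 and 22 under the other settings. At a pseudocount of 0.1 the number was 20, but only 13 of the 22 were among them, and the 9 lost failed the day limit (6), the drought limit (6) or both (3), since a smaller pseudocount moves ratios away from 1. Members called lower at day 9 numbered 1 in drought stems and 0 in drought crowns at an adjusted p under 0.01, where 9 and 6 were reported, and 2 in drought crowns when adjusted within the table. At an adjusted p under 0.01, stem over crown calls were lost in some pairs for Sevir.2G310200, Sevir.7G220700, Sevir.9G230800 and Sevir.9G565500. No stem over crown call was lost when adjusted within the table. Counts of drought calls (0) and of members next to another (0), and the centred day medians, stayed close to those reported. No paired analysis was possible because the tables hold 1 value per group, and for the same reason no replicate could be left out and the planned limma fit was not run. Depth is unknown, and members with under 1 FPKM in crowns have the least certain ratios.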

Other observations

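Lower values at day 9 were also found in stem-enriched genes that the limits on drought and age kept out. Of the 250 genes with a stem/crown ratio of at least 2.5 in all 4 pairs, whatever their response to drought or age, 249 stood lower at day 9 in drought stems and 249 in watered stems, and the gene that did not was Sevir.9G230800 in both. In the authors' deposited tables, 76% of the 250 were called lower at day 9 in drought stems and 54.4% in watered stems, where 7.3% and 6.76% of all genes listed were. In crowns, 50.2% of the 237 listed were called lower at day 9 under drought and 38.2% of the 241 listed in watered plants, beside 2.59% and 2.0% of all genes. Lower values in all 4 day pairs were found in 93.6% of the 250, and lower values under drought at day 9 in both regions in 92.4%. Under drought at day 9, the authors' deposited tables called 6.4% of the 250 lower in stems and 11.5% of the 227 listed lower in crowns, beside 2.37% and 4.17% of all genes listed. These genes were picked by region, from the same libraries, and the share of day and drought changes in them was described and not tested.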
